A study of Homo sapiens with 18 samples.

Results

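The genes described here are EEF2, EEF1A1, EEF1A2, EEF1B2, EEF1D and EEF1G, which encode translation elongation factors, and RACK1, which encodes a protein of the small ribosomal subunit. They are 7 of the 59712 placed genes of the RefSeq annotation of GRCh38.p14, the assembly of hg38, and were chosen by name because earlier results had shown peaks of RNA-bound MYC in most of them. Their peaks are the entries of 3 deposited lists that overlap the annotated gene span by at least 1 bp, so having a peak is part of how the genes were chosen and is described without a test. There were 32 such peaks, 2 in the 3A list, 1 in the 7A list and 29 in the wild-type list.

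The lists come from eCLIP, enhanced crosslinking and immunoprecipitation, an assay that fixes RNA to its bound proteins with ultraviolet light, pulls down 1 protein and sequences the RNA that stays attached. All cells were U2OS, a human osteosarcoma line, with the endogenous MYC knocked out and a FLAG-tagged MYC switched on by doxycycline through a Tet-On system. The tagged MYC was the mutant 3A, the mutant 7A or wild type, and neither the changed residues nor whether a line is a single clone is stated in the labels. Doxycycline was given at 1 µg/mL for 24 h, and control cells received PBS for as long. Every allele had 3 libraries in each condition, 2 of them immunoprecipitated and 1 input, or 18 in all. The 3 lists belong to the immunoprecipitates with doxycycline and hold 103 peaks for 3A, 88 for 7A and 2149 for wild type. Data of the PBS-treated cells were not used here, which leaves these peaks without a background from uninduced cells. With 1 list per allele there is no replicate error and no test, the sequencing depth is unknown, and a longer list can come from a deeper library. Each list held 2 peaks in MYC itself, the tagged gene.

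Elongation is the stage of protein synthesis in which the ribosome adds amino acids to the chain. eEF1A, made from EEF1A1 or its paralog EEF1A2, brings each charged tRNA to the ribosome and splits GTP. The eEF1B complex, with subunits encoded by EEF1B2, EEF1D and EEF1G, recharges eEF1A with GTP, and eEF2 then moves the ribosome along the message. RACK1 is a scaffold of the small subunit to which signalling proteins attach. The messages of most of these genes are known to begin with a tract of pyrimidines, the TOP motif, through which mTOR controls their translation together with that of ribosomal protein messages. MYC, a transcription factor of the helix-loop-helix leucine zipper family, is known to raise the transcription of many genes of protein synthesis.

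Sequences at the annotated starts are shown because many RNA peaks of wild-type MYC in other genes lie near the start. Where the messages begin in these cells was not measured. RefSeq promoter entries of GRCh38.p14 were found for 5 of the 7 genes, with 2 for EEF1B2. EEF1A2 and EEF1D had no entry in the table used. Each run covers 10 bases before and 20 bases from the annotated start on the gene's own strand, and capitals mark its longest unbroken stretch of C and T.
EEF2 (chr19:3985444-3985473, minus strand): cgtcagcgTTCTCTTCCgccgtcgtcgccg
EEF1A1 (chr6:73521013-73521042, minus strand): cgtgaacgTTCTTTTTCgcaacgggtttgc
EEF1B2, first start (chr2:206159599-206159628, plus strand): aagtggCCCCagcctcgaggccgggcgtct
EEF1B2, second start (chr2:206159885-206159914, plus strand): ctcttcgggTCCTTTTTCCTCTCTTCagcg
EEF1G (chr11:62573872-62573901, minus strand): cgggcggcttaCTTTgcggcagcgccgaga
RACK1 (chr5:181243887-181243916, minus strand): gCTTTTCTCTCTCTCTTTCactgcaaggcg
The stretch of C and T was 9 bases long in EEF2 and in EEF1A1, 17 at the second start of EEF1B2 and 18 in RACK1, and 4 at the first start of EEF1B2 and in EEF1G. A stretch of at least 8 was thus present in 4 of the 6 entries, against 12.9% of 22198 entries of protein-coding genes in windows of the same size, where the median was 4. These letters were searched on the gene's strand only and describe the sequence, not a site of MYC.

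In the 3A list 1 of the 7 genes had a peak, against 0.142% of all placed genes and 0.359% of protein-coding genes. In the 7A list it was also 1 of 7, against 0.116% and 0.269%. In both lists the gene was EEF2. In the wild-type list 6 of the 7 genes had a peak, against 2.76% of all placed genes and 6.78% of protein-coding genes. EEF1D was the gene with no peak in any list. Since the genes were picked for their peaks, these shares do not bear on whether the group stands out.

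The wild-type peaks were very unevenly shared among the 7 genes. EEF2 had 9, EEF1A2 had 8 and RACK1 had 7, which is 24 of the 29. EEF1A1 and EEF1G had 2 each, EEF1B2 had 1 and EEF1D had 0. Of the 1359 protein-coding genes with a wild-type peak, 70.4% had a single one and 1.03% (14 genes) had at least 7, so EEF2, EEF1A2 and RACK1 are among those 14. Relative to length, RACK1 had 0.999 wild-type peaks per kb of gene span, EEF2 0.957 and EEF1A2 0.723, while EEF1A1 had 0.379, EEF1B2 0.301 and EEF1G 0.140. The peaks covered 16.4% of the EEF2 span, 16.3% of RACK1 and 15.5% of EEF1A2. They covered 9.81% of EEF1A1, 3.43% of EEF1B2 and 1.74% of EEF1G. All 21 wild-type peaks in members with a strand in the promoter table lay on that strand, and the 8 peaks of EEF1A2, for which the table gives none, all lay on the minus strand.

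**Figure D1:**
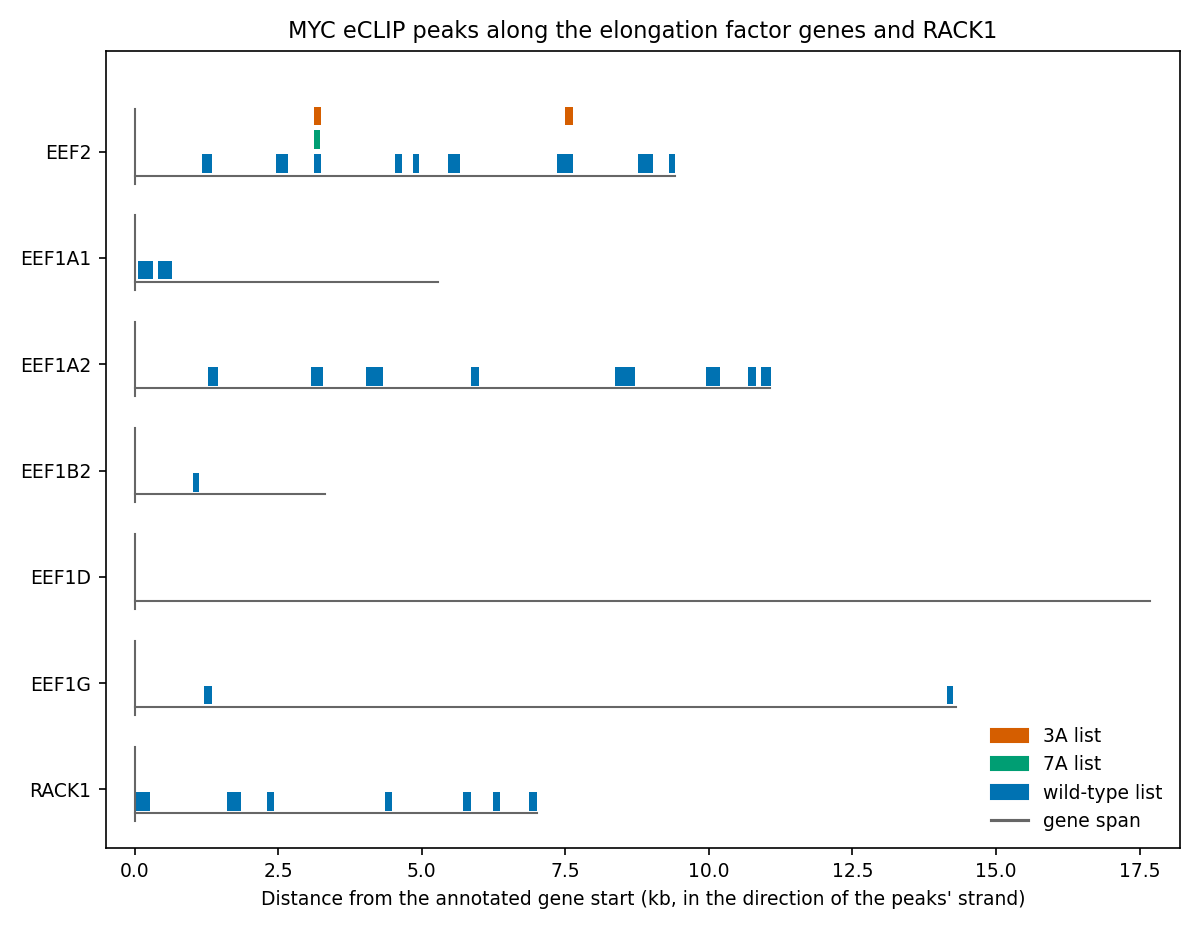
Peaks of the 3A, 7A and wild-type lists along each gene, drawn to scale in kb from the annotated gene start. The start was taken at the upper end of the EEF1A2 span because its peaks are on the minus strand, and the direction of EEF1D is not given. EEF2, EEF1A2 and RACK1 hold 9, 8 and 7 wild-type peaks, the first of which begin 1175, 1281 and 14 bp from the start and the last of which lie at the end, both EEF1A1 peaks lie near its start, and EEF2 alone holds peaks of the mutants.

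EEF2 (chromosome 19, 3976056 to 3985463, minus strand) encodes the GTPase of translocation, a protein with the modified histidine diphthamide. It was the one gene of the group with peaks in all 3 lists. A position 3136 bp into the gene, by its wild-type summit, was a peak in every list. It ran from 3982216 to 3982344 in the 3A list, from 3982235 to 3982344 in the 7A list and from 3982228 to 3982347 in the wild-type list. The upper ends, which are the 5′ ends on this strand, were identical in both mutant lists and 3 bp from that of wild type. The lower ends were within 19 bp of each other. The 7A summit was 2 bp from the wild-type summit, and the 3A summit was 25 bp from it. The overlap of 3A with wild type took up 90.7% of the 3A peak and 97.5% of the wild-type peak, and that of 7A with wild type 100% of the 7A peak and 91.7% of the wild-type peak.

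A second EEF2 position was a peak in the 3A list, from 3977830 to 3977962, and in the wild-type list, from 3977830 to 3978107. Its lower ends were identical, its summits were 2 bp apart, and the 3A peak covered 47.8% of the longer wild-type peak. Neither position was the strongest wild-type peak of the gene. By fold enrichment, the authors' value for each peak over a control that is not stated, the first position was 3rd of the 9 EEF2 peaks (5.18) and the second was 7th (3.90). The highest, from 3980510 to 3980615 (8.28), met no mutant peak. Within the mutant lists the EEF2 peaks ranked low as well: 62nd and 79th of 103 by fold enrichment in 3A (4.79 and 3.84), and 78th of 88 in 7A (3.46). Fold enrichments of different lists were not compared, because their controls and depths are unknown.

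All 3 mutant peaks in these genes thus met a wild-type peak on the same strand. Over the whole lists, overlap with wild type was counted by position alone, without regard to strand. It held for 81 of the 103 entries for 3A and for 30 of the 88 for 7A. A wild-type peak met by both mutants, like the first EEF2 position, was found 21 times among the 2149 wild-type peaks (0.977%), again by position alone.

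**Figure D2:**
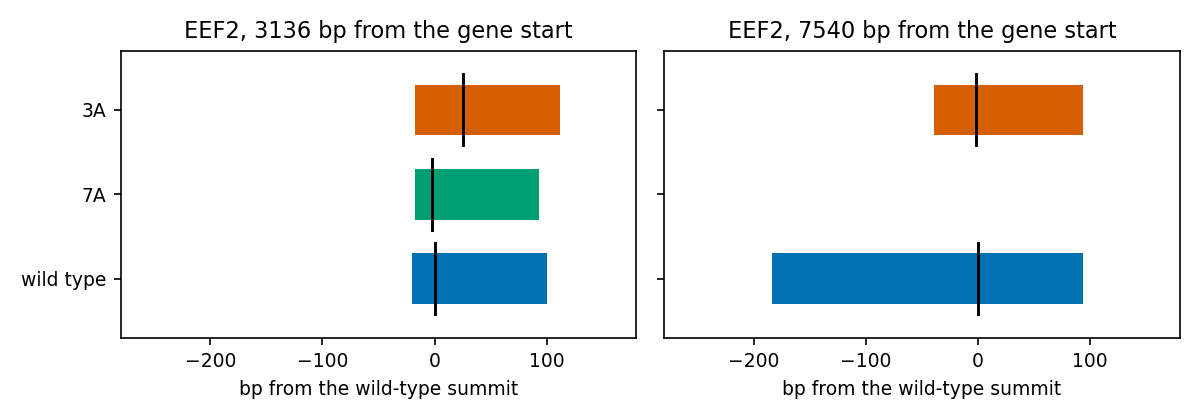
The 2 EEF2 positions that were peaks in more than 1 list, drawn in bp from the wild-type summit with transcription running to the right. Bars are the peaks of the 3A, 7A and wild-type lists and black ticks their summits. At 3136 bp from the gene start all 3 lists have a peak with nearly the same 5′ edge, and at 7540 bp the 3A peak fills the 3′ part of the wild-type peak.

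Along EEF2 the 9 wild-type summits lay 1247, 2539, 3136, 4577, 4894, 5497, 7540, 8812 and 9347 bp from the start of its 9408 bp. No EEF2 peak lay at the start itself. The last peak passed the annotated end of the gene by 9 bp, and its summit was 60 bp inside that end. Their fold enrichments were low for the list, with a median of 4.24 and a range of 3.06 to 8.28, against a median of 8.11 over all 2149 wild-type peaks. By rank, 8 of the 9 stood between 1478 and 2088 of 2149. Ranked by −log10 q, the authors' measure of confidence, all 9 stood higher, with a median rank of 596 against 1913 by fold enrichment. The −log10 q values ran from 18.0 to 49.1, all above the list's median of 17.8.

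EEF1A1 (chromosome 6, 73515750 to 73521032, minus strand) encodes the widely expressed form of eEF1A, one of the most abundant proteins of the cell. It had 2 wild-type peaks, from 73520718 to 73520978 with a fold enrichment of 5.74, and from 73520377 to 73520633 with 6.78. The second had a −log10 q of 63.6, rank 142 of the list. Both lay close to the start, at 54 to 314 and 399 to 655 bp from it, and no peak lay further along the 5283 bp of the gene. The end of the RefSeq promoter entry is shown because it locates them. Bases 21 to 50 from the annotated start (chr6:73520983-73521012, minus strand) read as follows, with capitals for the word GTAAGT, a common beginning of introns.
EEF1A1: cgccagaacacagGTAAGTgccgtgtgtgg
GTAAGT began at base 34 and the first peak at base 55, which is 15 bases after the word. In the first 50 bases, on the gene's strand, 151 of 22198 promoter entries of protein-coding genes held GTAAGT (0.680%), and of the 6 entries of these genes EEF1A1's alone did. The annotation used gives no exons, so whether both peaks lie in the first intron was not tested. The start of EEF1A1 with its first intron is in wide use as a promoter in expression vectors, and the labels do not name the vector parts in these cells, so RNA of the gene and of a vector cannot be told apart here.

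EEF1A2 (chromosome 20, 63488014 to 63499083) encodes the form of eEF1A known from neurons and muscle. Its protein is closely similar to that of EEF1A1, but its peaks were arranged differently. The 8 wild-type summits lay 1362, 3160, 4081, 5900, 8440, 10019, 10752 and 10960 bp from the start of 11070 bp. Their fold enrichments, in the same order, were 12.0, 12.8, 7.93, 6.63, 14.1, 13.6, 8.39 and 4.63. These were higher than those of EEF2, with a median of 10.2, above the list's median. The peak from 63490379 to 63490722 was the widest of the group at 344 bp and ranked 310th by fold enrichment and 139th by −log10 q (64.2). The last peak passed the annotated end by 18 bp. The long non-coding RNA gene LOC124904955 overlaps the first part of the gene and runs beyond it. None of the EEF1A2 peaks overlapped it, the nearest of them being 479 bp away. Neither mutant list held a peak in EEF1A1 or EEF1A2.

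RACK1 (chromosome 5, 181236897 to 181243906, minus strand) held the strongest peak of the group. It ran from 181238043 to 181238193, with a fold enrichment of 20.7 (79th of 2149) and a −log10 q of 87.2 (84th). In order from the start, the 7 summits lay 144, 1699, 2350, 4395, 5779, 6276 and 6921 bp into the 7010 bp of the gene. The fold enrichments in that order were 9.22, 3.60, 9.77, 8.43, 20.7, 6.39 and 10.5. RACK1 was thus the gene with the widest range of fold enrichments in the group. It was also the one with a peak nearest to its annotated start. That peak, from 181243638 to 181243892, began at base 15 of the gene. Bases 5 to 34 from the annotated start (chr5:181243873-181243902, minus strand) are shown with the bases inside the peak in capitals.
RACK1: ctttcactgcAAGGCGGCGGCAGGAGAGGT
The peak therefore began just after the 18-base stretch of C and T printed above, and did not include it.

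The eEF1B subunits had few peaks. EEF1B2 (chromosome 2, 206159609 to 206162928, plus strand), which encodes a nucleotide exchange subunit, had 1 wild-type peak from 206160622 to 206160735. Its fold enrichment was 7.34 and its −log10 q of 13.8 was the lowest of the 29. The summit was 1034 bp from the first annotated start and 748 bp from the second, the one with the long stretch of C and T. EEF1G (chromosome 11, 62559596 to 62573891, minus strand), which encodes the structural subunit, had 2 peaks 12789 bp apart. One had its summit 1263 bp from the start (fold enrichment 7.74), the other 139 bp before the end (4.72). EEF1D (chromosome 8, 143579728 to 143597415), which encodes the other exchange subunit and is the longest gene of the group at 17688 bp, had none, although 60 wild-type peaks lay elsewhere on that chromosome. None of the 3 had a mutant peak.

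Several of these genes carry small nucleolar RNA genes within their spans. There were 5 of them, SNORD37 in EEF2, SNORD51 and SNORA41 in EEF1B2, and SNORD96A and SNORD95 in RACK1. None was overlapped by a peak. The nearest wild-type peaks of the same host gene were 159 bp from SNORD37, 169 bp from SNORD96A and 261 bp from SNORD95. For SNORD51 and SNORA41 they were more than 1 kb away (1145 and 1492 bp). The microRNA gene MIR6747 in EEF1G had no peak within 5469 bp. Thus 0 of the 32 peaks overlapped another annotated gene.

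The 29 wild-type peaks stood higher by −log10 q than by fold enrichment. The median rank was 413 by −log10 q and 1374 by fold enrichment, and 27 of the 29 ranked higher by −log10 q, against 43.6% of all wild-type peaks (937 of 2149). By fold enrichment 11 of the 29 were in the top 50% of the list, and by −log10 q 26 were. The median values were a fold enrichment of 6.78, against 8.11 for the whole list, and a −log10 q of 36.0, against 17.8. Peaks of large-subunit ribosomal protein genes had median ranks of 561.5 by −log10 q and 1007.5 by fold enrichment, those of the small subunit 516.5 and 1305, and those of initiation factor genes 1120 and 1372. For the 10 peaks of other elongation-pathway genes the median ranks were close, 808 by −log10 q and 754.5 by fold enrichment. Single peaks went both ways. Those of EIF5A ranked higher by −log10 q (19, 36 and 321, against 171, 158 and 1362 by fold enrichment). Those of the mitochondrial factor genes TSFM and GUF1 ranked lower, and those of TUFM were mixed. At a given fold enrichment −log10 q grows with the number of reads, but the reads behind each peak are not in the lists, so their part in these ranks was not tested.

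**Figure D3:**
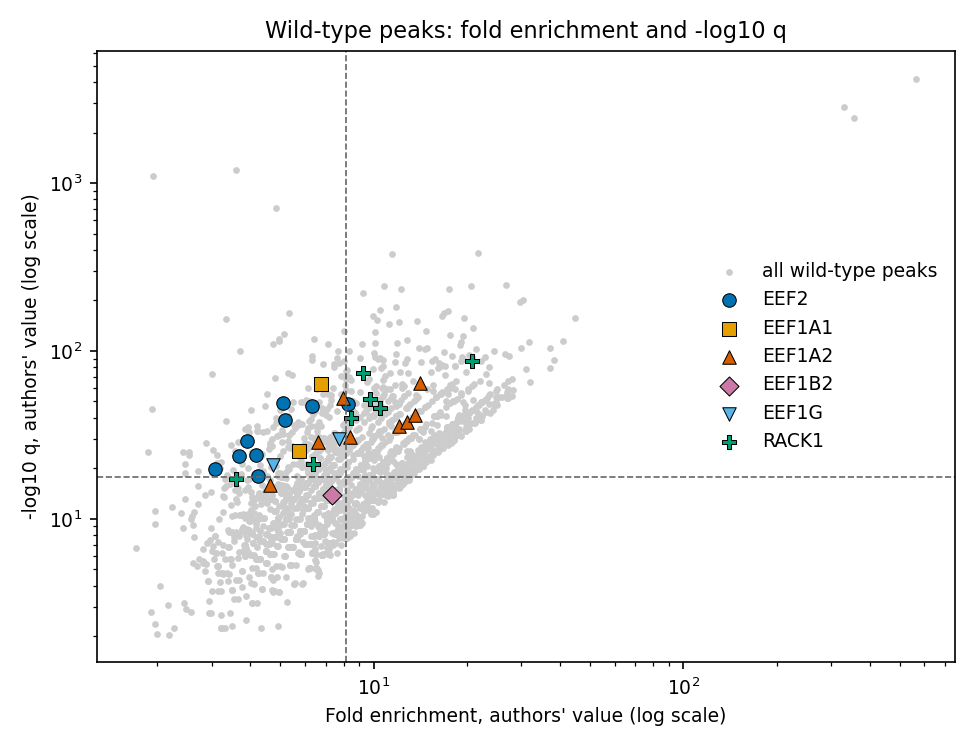
Fold enrichment against −log10 q of the 2149 wild-type peaks, both on log axes, with grey points for all peaks, coloured symbols for the 29 peaks of these genes and dashed lines at the list's medians (8.11 and 17.8). The EEF2 peaks lie left of or near the fold enrichment median and above the −log10 q median, and the RACK1 peak at 20.7 and 87.2 is the highest of the group on both axes.

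The last 20% of the gene held the largest number of wild-type summits, and EEF2, EEF1A2 and RACK1 gave 9 of its 10. Of the 29, 6 (20.7%, 95% Wilson interval 9.85 to 38.4, counting error only) lay in the first 20% of the gene span, against 10 (34.5%) in the last 20%. The intervals here take summits as independent, but 24 of the 29 lie in EEF2, EEF1A2 and RACK1. They do not measure a difference between sets of genes. Among 1591 wild-type summits in other protein-coding genes with a given strand, 51.5% (49.0 to 53.9) were in the first 20% of the span, and the last 20% held 20.7%. For other genes with a span between those of EEF1B2 and EEF1D, the share in the first 20% was 50.7%. It was 44.4% of 72 summits in large-subunit ribosomal protein genes, 38.1% of 42 in small-subunit ones and 35.5% of 31 in initiation factor genes. Without EEF1A1, both of whose peaks lie near the start, 4 of 27 (14.8%) were in the first 20%.

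Several genes of the group had a peak at the very end. A summit within 200 bp of the annotated end was present in EEF2, EEF1A2, EEF1G and RACK1, 4 of the 6 genes with a wild-type peak. For EEF1A2 the strand was that of its peaks. Of 1042 other protein-coding genes with a given strand and a summit counted on it, 81 had one near the end (7.77%). Of the 390 such genes of like span, 42 did (10.8%). Such a summit was also common in other genes with many peaks, while EEF1G had one with only 2 peaks. Whether the number of peaks accounts for it was not tested. Among the 9 other protein-coding genes with a given strand and at least 7 wild-type peaks, 5 had a summit within 200 bp of the end. In those 9 genes 20.5% of 73 summits lay in the first 20%, against 12.5% of 24 in EEF2, EEF1A2 and RACK1 together. The last 20% held 27.4% in the 9 genes and 37.5% in EEF2, EEF1A2 and RACK1. Summits within 500 bp of the start were present in 6 of the 9. Of EEF2, EEF1A2 and RACK1, only RACK1 had one. These are descriptions of 1 list, and no difference between the sets of genes was tested.

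**Figure D4:**
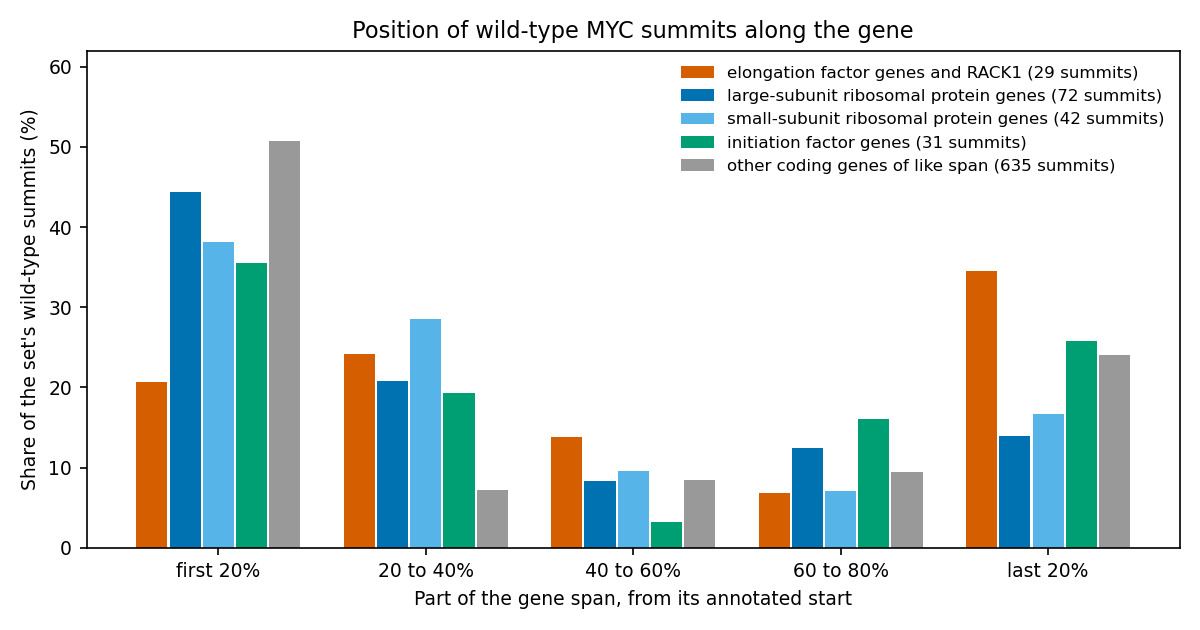
Share of wild-type summits in each 20% of the gene span, counted from the annotated start, for the elongation factor genes with RACK1, large-subunit and small-subunit ribosomal protein genes, initiation factor genes and other protein-coding genes of like span. Bars start at 0 and are percentages of each set's summits. The elongation factor genes with RACK1 have 20.7% at the start and 34.5% at the end, and the other genes of like span 50.7% and 24.1%.

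Many genes of translation have copies elsewhere in the genome, to which reads can be placed wrongly or from which an aligner cannot tell them. By symbol the annotation holds 77 pseudogenes of the 7 genes, of which 50 are of EEF1A1, 8 each of EEF1B2, EEF1D and EEF1G, and 3 of RACK1, while EEF2 and EEF1A2 have 0. None of the 77 had a peak in any of the 3 lists. Of 1979 pseudogenes of ribosomal protein genes named in the same way, 2 had a peak in the 3A list, 0 in the 7A list and 52 in the wild-type list. The genes with 0 to 3 such copies, EEF2, EEF1A2 and RACK1, had 9, 8 and 7 wild-type peaks, and those with 8 or 50 had 0 to 2. How reads with several matching places were treated is not given in the sources used here, and the part of these copies in the number of peaks was not tested.

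Other genes of the elongation pathway had fewer hits, a contrast fixed in part by the choice of the 7 genes for their peaks. Of 31 such genes, including factors of the mitochondria and enzymes that modify eEF1A, eEF2 and eIF5A, 1 had a 3A peak, 0 a 7A peak and 4 a wild-type peak (12.9%). Over all protein-coding genes the shares were 0.359%, 0.269% and 6.78% in the 3A, 7A and wild-type lists. EIF5A, whose hypusine-bearing product helps the ribosome through difficult peptide bonds, had 1 3A peak and 3 wild-type peaks. The 3A peak, on chromosome 17 from 7307657 to 7307774, lay inside the wild-type peak from 7307602 to 7307804. That wild-type peak had a −log10 q of 174, rank 19 of the list. TUFM, the mitochondrial counterpart of eEF1A, had 4 wild-type peaks with fold enrichments of 8.79 to 19.5. TSFM, its exchange factor, had 2 (10.4 and 13.4), and GUF1, a mitochondrial GTPase related to bacterial elongation factor 4, had 1 (9.64). The others, among them the eEF2 kinase gene EEF2K, the diphthamide synthesis genes DPH1, DPH2, DPH3, DPH5, DPH6 and DPH7, and TPT1, had none.

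In the related families, 3 of 47 large-subunit ribosomal protein genes had a 3A peak, 0 a 7A peak and 36 (76.6%) a wild-type peak. Of 32 small-subunit genes, 2 had a 3A peak, 0 a 7A peak and 22 (68.8%) a wild-type peak. Of 36 initiation factor genes, 0 had a mutant peak and 12 (33.3%) a wild-type peak. The largest number of wild-type peaks in 1 gene was 4 in either ribosomal protein set and 8 among initiation factors, against 9 in EEF2. No other protein-coding gene had the EEF2 pattern of 2 peaks for 3A, 1 for 7A and 9 for wild type. The numbers of EEF1A2 (0, 0 and 8) were shared by SCD and EIF4G1, and those of RACK1 (0, 0 and 7) by 5 genes, of which RCC1, HSPA8 and CCND2 had the nearest best rank by fold enrichment (72, 113 and 124, against 79 for RACK1). This likeness rests on 3 counts per gene. RNA levels of these genes in the cells were not analysed here, and abundant messages can give more peaks, which was not tested.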

How the data were processed

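Per the labels' protocols, cells were irradiated with ultraviolet light and lysed, and RNase I was used before precipitation with a FLAG antibody. The build hg38 and the tools BWA, cutadapt and MACS2 are named in the submitters' processing notes. Their roles, versions and settings, the control for peak calling and any pooling of replicates are not stated there. For every peak the authors deposited a fold enrichment (a ratio to an unstated control) and a −log10 q (lowest value 2.34 in the 3A list, 2.90 in 7A and 2.04 in wild type). A deposited whole-number score per peak was not used. Depth per sample is unknown.

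Starts were turned to 1-based positions. Spans came from RefSeq (GRCh38.p14), with strands from its promoter table where it had an entry. Elsewhere the strand of the peak was taken. A peak belonged to a gene by an overlap of at least 1 bp, and its summit placed it along the gene. Overlaps between lists also needed 1 bp. All 7 genes were named, with every mutant peak. The pseudogenes are those whose symbol is a listed gene's followed by P and a number. The genes and lists were chosen with earlier results of these data known. No test across lists was made. Counting was checked on made-up peaks. Alternatives were stricter −log10 q, other overlap, strand, position and ranking rules. Computations ran in Python 3.11.15 with SciPy 1.17.1, NumPy 2.4.6, pandas 2.3.3 and matplotlib 3.10.9.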

Additional observations from a re-analysis of the deposited data

How the results depend on the processing

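Of 48 alternative values of 13 results, 43 stayed within 1.5 times the value given, or, for the share of summits of other genes, within its interval. With a −log10 q of at least 20, the 7A list had 0 peaks in these genes and 0 of them with a peak, since the EEF2 peak has 14.2, and the wild-type list had 24 peaks in 5 genes. Without EEF2, a setting added after seeing the data, 0 peaks were left in the 3A list, 0 in the 7A list and 20 in wild type. Ranked by −log10 q, 26 of the 29 wild-type peaks were in the top 50% of the list, against 11 by fold enrichment. Also added later were the setting without EEF1A1 and the genes of like span. No paired analysis was possible because the peaks of an allele carry no values for single replicates, so none could be left out either. Unknown depth and the few mutant peaks limit what the mutant lists can show: no peak in a gene does not show that its RNA was unbound.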
